A study of Mus musculus with 8 samples.

Results

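The glycolytic isozymes described here are 10 genes: the hexokinases Hk1 and Hk2, the phosphofructokinases Pfkl, Pfkm and Pfkp, the aldolases Aldoa and Aldoc, the pyruvate kinase Pkm, and the lactate dehydrogenase subunits Ldha and Ldhb. They were picked by gene symbol out of 23372 genes in the count table, with earlier results of these data known. All 10 passed the filter on low counts. Their RNA was measured by sequencing in brown adipose tissue, a fat depot specialised for making heat, of 10-week-old mice of the C57BL/6 N background. The knockout group held 4 libraries (replicates 512, 513, 515 and 516) from mice with Cre recombinase under the Ucp1 promoter and floxed Lsd1. Lsd1 removes methyl groups from histones and has the gene symbol Kdm1a. The control group held 4 libraries (replicates 511, 514, 517 and 518) from mice with the floxed alleles and no Cre named. The floxed alleles were therefore shared by all mice, and effects of Lsd1 loss and of Cre itself cannot be told apart. The Ucp1 promoter is active in brown adipocytes, so other cells of the tissue keep Lsd1. The labels number the libraries but do not state that each is a separate animal, so the p-values below measure only how these samples spread, which may be technical in part.

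Glycolysis turns glucose into pyruvate, and several of its steps can be carried out by more than one enzyme, each from its own gene. Such isozymes catalyse the same reaction but differ in the tissues that express them and in how they are controlled. In brown fat, glucose is taken up in response to insulin and to cold, and its carbon is burned, stored as lipid or glycogen, or released as lactate.

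The targeted gene Kdm1a had 14.0, 12.2, 13.2 and 13.0 CPM in the knockout libraries, against 35.3, 36.0, 33.3 and 36.9 CPM in the control libraries (CPM, counts normalised for library size with TMM factors, with libraries always in the order 512, 513, 515 and 516 for knockout and 511, 514, 517 and 518 for control). The groups did not overlap, with a log2 fold change (knockout over control) of -1.43 and an approximate standard error (SE) of 0.0743 by edgeR's quasi-likelihood test (adjusted p = 2.66e-05). All 10 brown adipocyte markers were measured, and their summed level was 12412 to 14008 CPM in knockout libraries and 18602 to 25025 CPM in control libraries. 5 of them fell, Ucp1 among them (1377 ± 161 CPM in knockout and 4481 ± 1200 CPM in control tissue; SD, n = 4 each), and none rose. All 20 skeletal muscle markers had positive log2 fold changes (median 1.54, 2 called), with summed levels of 10045 to 22432 CPM in knockout libraries and 517 to 8905 CPM in control libraries. Beside these marker counts, 15.4% of all tested genes rose and 18.9% fell, at the threshold given below. Control library 514 stood apart with the lowest muscle sum, 517 CPM, against 4952 CPM or more in the other control libraries. Library totals lay between 23683798 and 28570446 counts over genes.

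The isozymes changed in opposite directions. Of the 10, 3 rose in knockout tissue (Hk1, Pfkm and Aldoc), 3 fell (Hk2, Pfkl and Ldha) and 4 did not pass the test (Pfkp, Aldoa, Pkm and Ldhb). A gene counts as risen or fallen at an edgeR adjusted p under 0.05, taken over all 14178 genes tested. Among those genes 15.4% rose and 18.9% fell, together 34.4%, beside 6 of the 10 members. Since the members were picked with earlier results of these data known, these counts are a description and not a test. Knockout and control CPM values did not overlap for 5 members, beside 35.5% of all tested genes. Of these 5, 3 were higher and 2 lower in knockout, beside 15.7% and 19.7% of all genes. The members' median log2 fold change was -0.13 and that of all tested genes -0.012. By size of the log2 fold change from the highest down, Aldoc ranked 21 and Hk1 ranked 219 of the 14178 genes, while Hk2 ranked 14068. Where an RNA was lower or higher in whole tissue, a change in the number of cells of a type and a change in RNA per cell cannot be told apart.

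**Figure D1:**
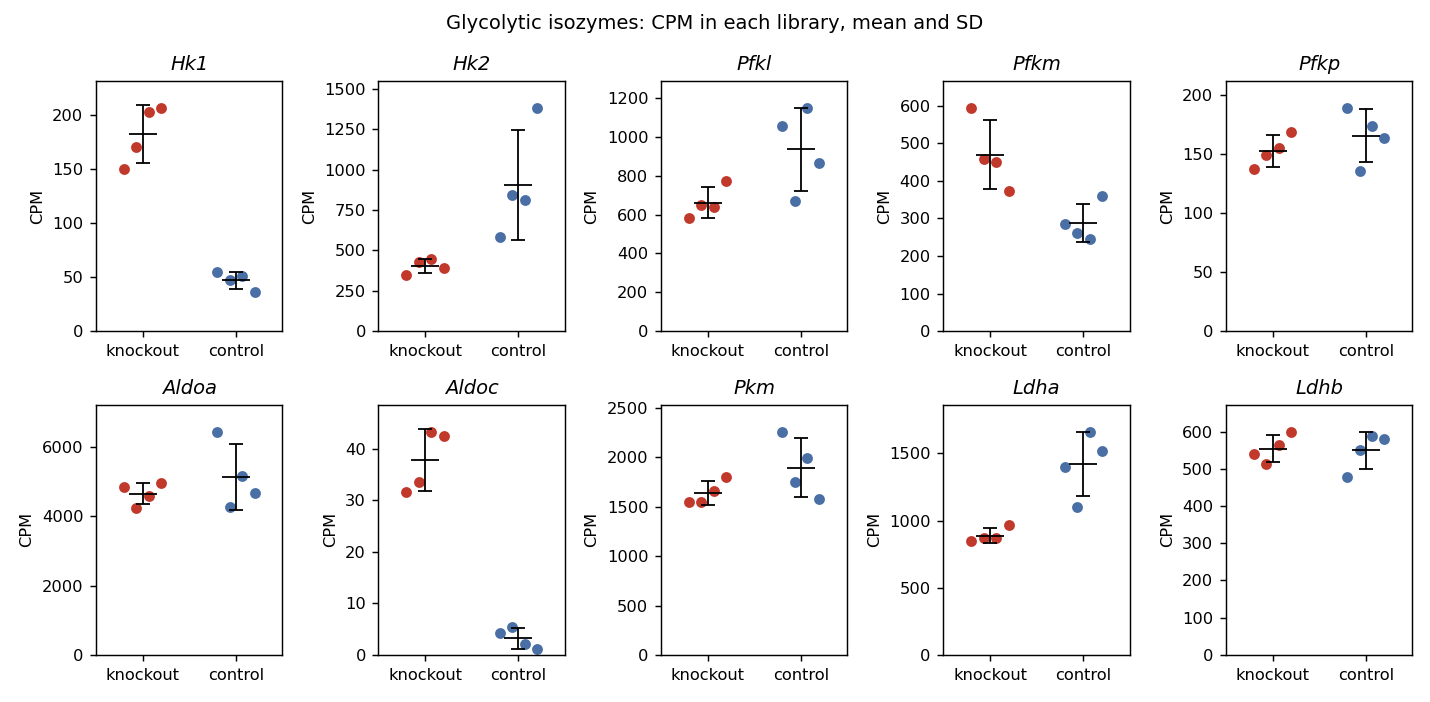
CPM of each of the 10 isozymes in each library (vertical axis, starting at 0), with the 4 knockout libraries as red points left of the 4 control libraries as blue points; the long bar is the mean and the whiskers the SD. Hk1, Pfkm and Aldoc sit higher and Hk2 and Ldha lower in every knockout library than in any control library, and the groups overlap for the other 5 genes.

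The hexokinases add a phosphate to glucose and so trap it in the cell. Hk1, the hexokinase of brain and most tissues (chromosome 10, 62268855 to 62340421, minus strand, mm10), had 150.0, 170.4, 203.1 and 206.9 CPM in the knockout libraries, against 54.7, 47.3, 50.8 and 36.0 CPM in the control libraries. Every knockout library lay above every control library. The group means were 182.6 ± 27.2 CPM in knockout and 47.2 ± 8.03 CPM in control tissue (SD, n = 4 each), a ratio of 3.87 (log2 fold change 1.95 with SE 0.150, edgeR adjusted p = 0.000108). Hk2, the insulin-responsive hexokinase of muscle and fat (chromosome 6, 82725027 to 82774454, minus strand), moved the other way. It had 347.7, 426.5, 444.8 and 391.6 CPM in the knockout libraries, against 580.8, 842.0, 811.1 and 1384 CPM in the control libraries. The groups did not overlap, and control library 518 was the highest by a wide margin. The means were 402.6 ± 42.8 CPM in knockout and 904.4 ± 340.1 CPM in control tissue, and the fall was 1.17 on the log2 scale (log2 fold change -1.17, SE 0.231, edgeR adjusted p = 0.00527). Without control library 518 the log2 fold change was -0.86 (edgeR adjusted p = 0.00368).

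Hk1 is listed with 2 transcript rows that share their 3′ end but start at different places, 62340421 and 62379908. The row starting at 62340421 had the higher counts in all libraries. It exceeded the other by 75, 93.5, 96 and 98.5 in the knockout libraries and by 24, 29.5, 25.5 and 19.5 in the control libraries. This difference sets exons held by 1 row alone against those held by the other alone, so it does not give the counts of either. As a share of the row starting at 62340421 it was 1.78% to 2.06% in knockout and 1.71% to 2.49% in control libraries, which overlap. The rows therefore do not tell the starts apart. An antisense gene, Hk1os, covers 3.67% of the exon bases of the Hk1 row, and counting did not use strand.

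Sequence upstream of the start is shown for the pair of genes with the largest rises, Hk1 and Aldoc, and for Hk2 and Ldha, which fell without overlap between the groups. Each window is the 250 bases before a RefSeq start, and where RefSeq lists several starts for a gene the one nearest to the start of its count row was used (GRCm38.p6, printed 5′ to 3′ on the gene's strand). Capitals mark the letters ACGTG on either strand, a form of the core of the hypoxia response element bound by HIF1. Other forms of this core, such as GCGTG, were not searched for, so a window without capitals may hold them. The letters ACGTG also stand inside the E-box CACGTG, which is bound by other factors.
Hk1, chr10:62340422-62340671, minus strand: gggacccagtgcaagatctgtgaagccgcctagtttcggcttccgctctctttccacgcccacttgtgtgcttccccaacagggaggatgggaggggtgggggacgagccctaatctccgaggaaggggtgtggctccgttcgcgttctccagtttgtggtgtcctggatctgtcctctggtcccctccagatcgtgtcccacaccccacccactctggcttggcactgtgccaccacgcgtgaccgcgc
Aldoc, chr11:78323948-78324197, plus strand: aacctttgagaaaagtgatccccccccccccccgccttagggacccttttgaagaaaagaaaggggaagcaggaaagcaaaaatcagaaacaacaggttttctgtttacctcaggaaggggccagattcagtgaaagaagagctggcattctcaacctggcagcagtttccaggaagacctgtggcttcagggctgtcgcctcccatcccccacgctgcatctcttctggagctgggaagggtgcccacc
Hk2, chr6:82774455-82774704, minus strand: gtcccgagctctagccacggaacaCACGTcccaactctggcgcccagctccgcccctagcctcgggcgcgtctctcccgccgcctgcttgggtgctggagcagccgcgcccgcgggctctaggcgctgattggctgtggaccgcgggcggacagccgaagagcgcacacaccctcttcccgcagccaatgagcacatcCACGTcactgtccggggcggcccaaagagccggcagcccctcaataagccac
Ldha, chr7:46845554-46845803, plus strand: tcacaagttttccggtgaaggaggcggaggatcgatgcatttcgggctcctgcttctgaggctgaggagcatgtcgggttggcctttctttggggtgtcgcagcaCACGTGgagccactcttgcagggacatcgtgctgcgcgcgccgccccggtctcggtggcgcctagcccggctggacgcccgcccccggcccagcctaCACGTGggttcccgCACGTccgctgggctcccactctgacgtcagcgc
The window of Ldha held 5 matches, 4 of them in its CACGTG palindromes that read the same on both strands, and that of Hk2 held 2. The windows nearest to the count rows of Pfkm and Aldoa held 1 match each, and those of the other 6 members held none. Over all 19 RefSeq windows of the 10 members, 7 held a match, and they belong to 5 members, since another start of Pkm has one. Of the 32851 windows of all genes in the RefSeq table, 16.6% held a match. A match says only that these letters are present, and none of it bears on binding in these samples.

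The phosphofructokinases commit sugar to glycolysis and work as tetramers of liver (Pfkl), muscle (Pfkm) and platelet (Pfkp) subunits. Pfkm (chromosome 15, 98108471 to 98132447, plus strand) had 594.1, 458.9, 450.3 and 373.2 CPM in the knockout libraries, against 285.8, 260.1, 246.5 and 360.6 CPM in the control libraries. The groups came close, at 373.2 CPM in knockout 516 and 360.6 CPM in control 518, but did not overlap. Its means were 469.1 ± 91.8 CPM in knockout and 288.3 ± 50.9 CPM in control tissue, which is 0.70 on the log2 scale (SE 0.160, edgeR adjusted p = 0.00986). Pfkl (chromosome 10, 77986949 to 78009796, minus strand) had 583.1, 648.5, 640.3 and 773.3 CPM in the knockout libraries, against 1055, 668.9, 1149 and 866.4 CPM in the control libraries. Control 514 lay within the knockout range, so the groups overlapped. The log2 fold change of Pfkl was -0.50 (SE 0.164, edgeR adjusted p = 0.0427), near the threshold, and leaving out any of 6 libraries (knockout 512, 513 or 515, or control 511, 517 or 518) ended the call, with edgeR adjusted p of 0.0648 to 0.101. Pfkp (chromosome 13, 6579874 to 6648724, minus strand) had 136.8, 149.3, 154.6 and 168.9 CPM in the knockout libraries, against 189.0, 135.7, 173.7 and 163.1 CPM in the control libraries. The groups overlapped and the difference did not pass (log2 fold change -0.12, SE 0.108, edgeR adjusted p = 0.425). Exons of Pitrm1 on the opposite strand cover 18.0% of the Pfkp exon bases.

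The aldolases split the phosphorylated sugar into triose phosphates, with Aldoa as the muscle and general form and Aldoc as the form of brain. Aldoc (chromosome 11, 78324198 to 78326760, plus strand) had 31.5, 33.6, 43.3 and 42.4 CPM in the knockout libraries, against 4.33, 5.39, 2.03 and 1.13 CPM in the control libraries. Behind these stand 785.5, 893.5, 1098 and 1134 counts in the knockout libraries and 111, 135, 46.5 and 30 counts in the control libraries. The lowest knockout library was far above the highest control library. Aldoc averaged 37.7 ± 6.01 CPM in knockout and 3.22 ± 1.98 CPM in control tissue, a ratio of 11.7 (log2 fold change 3.55 with SE 0.399, edgeR adjusted p = 0.000477). Aldoa, the most abundant of the 10 (chromosome 7, 126795234 to 126799178, minus strand), had 4843, 4256, 4582 and 4963 CPM in the knockout libraries, against 6452, 4269, 5167 and 4668 CPM in the control libraries. Its groups overlapped and it did not pass (log2 fold change -0.14, SE 0.130, edgeR adjusted p = 0.427).

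Pkm encodes the pyruvate kinase of most tissues, which makes pyruvate and ATP, in M1 and M2 forms that differ by mutually exclusive exons. The gene as a whole (chromosome 9, 59656368 to 59679375, plus strand) had 1546, 1546, 1658 and 1806 CPM in the knockout libraries, against 2263, 1756, 1991 and 1581 CPM in the control libraries. The groups overlapped and the difference did not pass (log2 fold change -0.21, SE 0.117, edgeR adjusted p = 0.190). Exons of other genes on the same strand, Gm49759 most of all, cover 8.18% of the Pkm exon bases. Both exclusive coding exons were read from GENCODE vM21 transcripts on GRCm38 (the same assembly as mm10). They are shown because they separate the rows of M1 and M2 in the count table. Capitals mark the 64 of 167 bases at which they differ.
Pkm M1 exon, chr9:59675029-59675195, plus strand: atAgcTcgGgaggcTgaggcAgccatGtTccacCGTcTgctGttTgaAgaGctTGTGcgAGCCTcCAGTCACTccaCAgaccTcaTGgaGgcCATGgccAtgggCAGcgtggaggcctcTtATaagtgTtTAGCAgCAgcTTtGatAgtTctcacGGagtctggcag
Pkm M2 exon, chr9:59675568-59675734, plus strand: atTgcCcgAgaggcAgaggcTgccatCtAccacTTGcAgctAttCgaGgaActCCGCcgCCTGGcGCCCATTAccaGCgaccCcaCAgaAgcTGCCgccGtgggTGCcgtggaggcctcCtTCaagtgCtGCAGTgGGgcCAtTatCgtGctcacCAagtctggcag
The M1 and M2 rows share start, end and length, so the difference of their counts was taken as the difference in reads over these exons. Other differences between the rows near their ends were not looked for. M1 exceeded M2 by 745.5, 741, 540.5 and 619 counts in the knockout libraries and by 1499.5, 509, 899.5 and 138.5 counts in the control libraries. The sign was the same in all 8 libraries. As a share of the M1 row this was 1.58% ± 0.341 in knockout and 1.51% ± 0.983 in control tissue (SD, n = 4 each), and the groups overlapped. The rows give the difference and not the level of each form, and the level of M1 or M2 alone cannot be read from them.

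Lactate dehydrogenase is a tetramer of A and B subunits that exchanges pyruvate and lactate. Ldha, the subunit that dominates in fast muscle (chromosome 7, 46845804 to 46855627, plus strand), had 847.3, 868.8, 870.3 and 966.0 CPM in the knockout libraries, against 1396, 1099, 1662 and 1518 CPM in the control libraries. All knockout libraries lay below all control libraries. Ldha averaged 888.1 ± 53.0 CPM in knockout and 1419 ± 239 CPM in control tissue (log2 fold change -0.68 with SE 0.123, edgeR adjusted p = 0.00358). Ldhb, the subunit that dominates in heart (chromosome 6, 142490249 to 142507943, minus strand), had 538.8, 513.1, 563.2 and 599.9 CPM in the knockout libraries, against 478.9, 550.6, 587.6 and 580.2 CPM in the control libraries. These groups overlapped and it did not pass (log2 fold change 0.012, SE 0.0870, edgeR adjusted p = 0.931). Of the members' transcript sequence, stretches of 50 bases are also found in transcripts of other genes for 39.3% of Pkm, 27.0% of Ldhb, 19.1% of Ldha and 13.5% of Aldoa. How the authors' counting treated such reads is not given in the sources used here, so the levels of these 4 genes are less certain. The share was 0% for Hk1, Hk2, Pfkm, Pfkp and Aldoc and 0.0543% for Pfkl.

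Within a family, the isozymes were set beside each other as CPM per kilobase of transcript, each as a percentage of its family's sum, with no test. Hk1 made up 36.4%, 34.7%, 37.8% and 41.2% of hexokinase RNA in the knockout libraries, against 11.1%, 6.95%, 7.68% and 3.34% in the control libraries, with Hk2 as the rest. Hk2 thus stayed the larger of the pair in every library. Pfkm made up 43.0% ± 7.27 of phosphofructokinase RNA in knockout and 26.0% ± 5.57 in control tissue. Pfkl made up 46.9% ± 6.24 in knockout and 63.4% ± 5.79 in control tissue. Pfkp kept a like share in both groups, 10.1% ± 1.07 in knockout and 10.6% ± 0.595 in control tissue. Ldhb made up 44.0% ± 0.977 of lactate dehydrogenase RNA in knockout and 33.1% ± 3.89 in control tissue. Despite its large fold change, Aldoc stayed under 1% of aldolase RNA, at 0.748% ± 0.114 in knockout and 0.0596% ± 0.0418 in control tissue (SD, n = 4 each). The ranges of the groups did not overlap for any of these shares except that of Pfkp. The shares are made from the same counts as the changes above, and those of a family depend on each other, so they add no separate support.

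**Figure D2:**
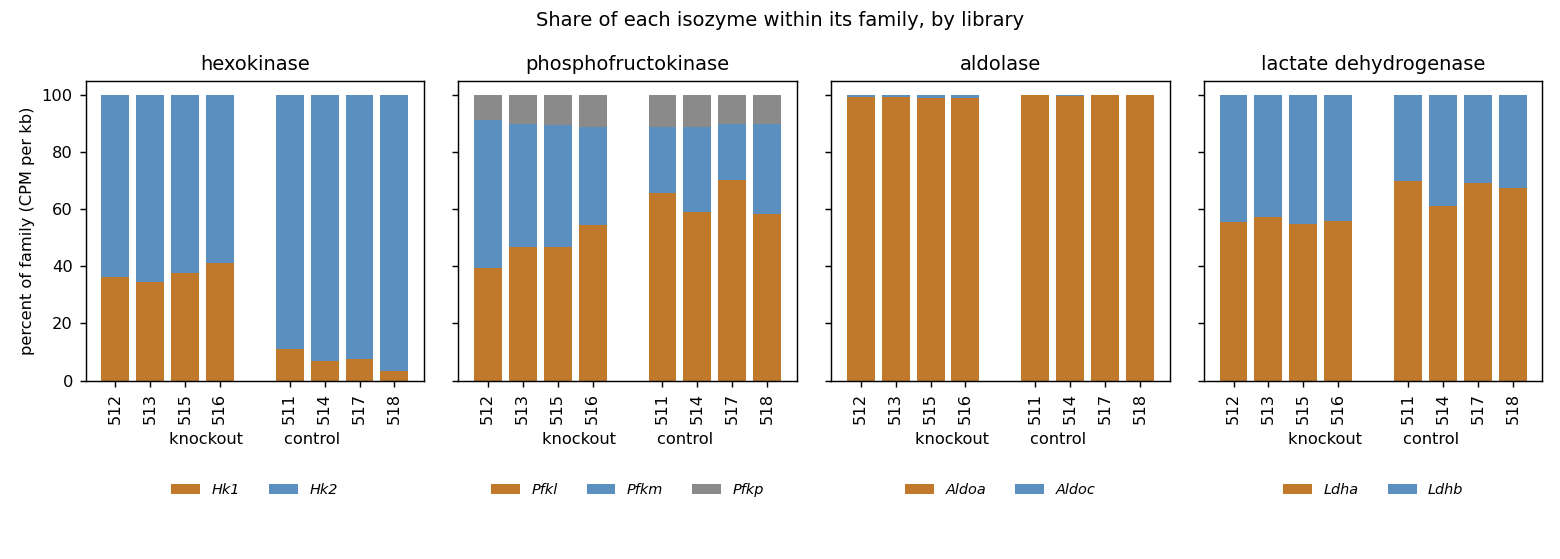
Share of each isozyme within its family (vertical axis, percent of the family's summed CPM per kilobase), 1 bar per library, with knockout libraries left of control libraries. Hk1 takes 34.7% to 41.2% of the hexokinase bar in knockout and 3.34% to 11.1% in control libraries, and Aldoc is a thin band at the top of the aldolase bar in knockout libraries.

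Summed over its members, the hexokinase family came to 117.9 ± 12.9 CPM per kilobase in knockout and 176.7 ± 60.2 in control tissue, with overlapping ranges. The phosphofructokinase family came to 384.4 ± 13.6 CPM per kilobase in knockout and 398.2 ± 62.2 in control tissue, and the aldolases to 2997 ± 201 in knockout and 3281 ± 606 in control tissue. Both families overlapped between the groups. Lactate dehydrogenase was the family whose sums did not overlap, with 988.0 ± 59.2 CPM per kilobase in knockout and 1315 ± 168 in control tissue (SD, n = 4 each).

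On the same per-kilobase scale of level, knockout tissue had the order Aldoa (2974), Pkm (680.4), Ldha (553.0), Ldhb (435.0), Pfkl (180.1), Pfkm (165.6), Hk2 (73.6), Hk1 (44.3), Pfkp (38.7) and Aldoc (22.4), as mean CPM per kilobase. Pfkl and Pfkm overlapped in their ranges over the 4 knockout libraries, as did Hk1 and Pfkp, and the other neighbours in the order did not. Control tissue had the order Aldoa (3279), Ldha (883.3), Pkm (787.8), Ldhb (431.5), Pfkl (254.5), Hk2 (165.2), Pfkm (101.7), Pfkp (42.0), Hk1 (11.5) and Aldoc (1.91). There the ranges of Ldha and Pkm, of Pfkl and Hk2, and of Hk2 and Pfkm overlapped. Aldoa was at the top and Aldoc at the bottom of both orders.

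Skeletal muscle, which can adhere to a fat pad, expresses several of these isozymes at high levels. Its summed markers did not overlap between the groups, with 22432, 14723, 12870 and 10045 CPM in the knockout libraries, against 6106, 517, 4952 and 8905 CPM in the control libraries. In the knockout libraries Pfkm ran in the same order as the muscle sum. From the highest down, the control libraries had the order 518, 511, 514 and 517 for Pfkm. For the muscle sum their order was 518, 511, 517 and 514. With the mean log2 CPM of the muscle markers as a covariate, Pfkm no longer passed (log2 fold change 0.48, edgeR adjusted p = 0.101). This mean was 8.43 to 9.59 in knockout and 4.02 to 8.22 in control libraries, without overlap. The covariate therefore cannot separate muscle content from the knockout, and the part of muscle in these changes was not tested. The 5 called members besides Pfkm kept their direction and their call with that covariate. Hk1 then had a log2 fold change of 2.06 (edgeR adjusted p = 0.000862), Aldoc 4.34 (0.000862), Hk2 -1.29 (0.0153), Ldha -0.88 (0.00364) and Pfkl -0.72 (0.0296), all as edgeR adjusted p. Muscle genes of the same pathway, chosen with their values known, came near 0 with the covariate, and neither passed the test without it. Being muscle genes, they follow a score made of muscle genes, so this outcome was fixed in advance. It tells nothing about the isozymes. Eno3, the muscle enolase, had a log2 fold change of 1.26 without and -0.031 with the covariate, and Pgam2, the muscle phosphoglycerate mutase, had 1.55 without and 0.080 with it.

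**Figure D3:**
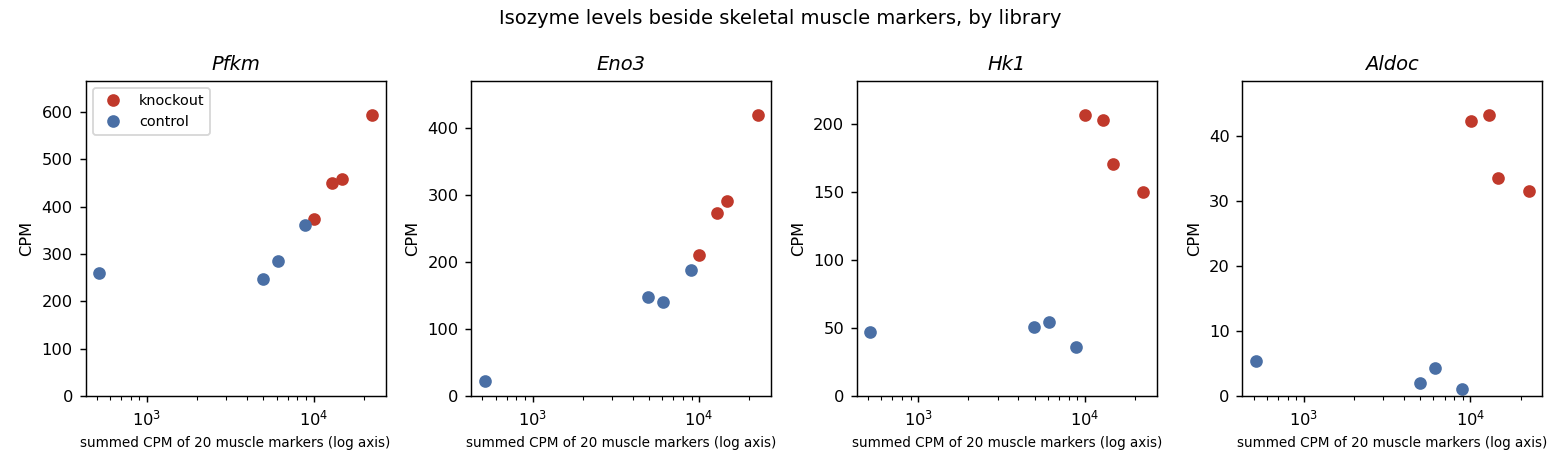
CPM of Pfkm, Eno3, Hk1 and Aldoc (vertical axes, starting at 0) against the summed CPM of the 20 skeletal muscle markers (horizontal log axis), 1 point per library, red for knockout and blue for control. Pfkm and Eno3 are highest in the knockout library with the highest muscle sum, 22432 CPM. Each of the genes shown is higher in every knockout library than in any control library. The muscle sums of the groups do not overlap, so knockout and control libraries cannot be compared at a like sum.

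Markers of neurons and of macrophages were read beside the isozymes, since Hk1 and Aldoc are abundant in brain and macrophages can use much glucose. The neuronal markers Dbh, Snap25 and Syt1 were at 0 in all libraries, and Th, Tubb3 and Rbfox3 were at or under 0.521 CPM in knockout and 0.151 CPM in control libraries. Of the 6 tested genes of the nerve list, which mark Schwann cells and nerve, 1 rose, S100b (116.5 ± 13.7 CPM in knockout and 85.3 ± 9.01 CPM in control tissue; log2 fold change 0.45, edgeR adjusted p = 0.00989). The summed list was 258.1 to 284.3 CPM in knockout and 203.8 to 217.7 CPM in control libraries, without overlap. Of 9 measured macrophage markers 4 rose and none fell, with sums of 196.7 to 297.9 CPM in knockout and 108.7 to 205.2 CPM in control libraries. Of 10 fibroblast and preadipocyte markers 1 rose, with sums of 1897 to 2872 CPM in knockout and 1041 to 2193 CPM in control libraries. None of 8 endothelial and none of 7 tested lymphocyte markers passed. Of 8 smooth muscle and pericyte markers 2 rose and 1 fell, and their sums overlapped between the groups. None of 5 tested erythroid markers passed, and all had positive log2 fold changes. The sums of the erythroid list were 1051 to 1545 CPM in knockout and 783 to 1207 CPM in control libraries. Beside the marker counts of this paragraph, 15.4% of all tested genes rose and 18.9% fell. The part of these cell types in the changes of the isozymes was not tested.

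Of 22 other glycolysis genes 15 were tested, of which 1 rose and 3 fell, beside 15.4% and 18.9% of all tested genes. Their median log2 fold change was -0.10. The neuronal enolase Eno2 rose at a low level, 2.86 ± 0.207 CPM in knockout and 1.94 ± 0.351 CPM in control tissue (log2 fold change 0.56, SE 0.175, edgeR adjusted p = 0.0351). Eno2 lost its call when any knockout library, control 511 or control 517 was left out, and with no filter on low counts. Eno1, the general enolase, had 253.8 ± 35.0 CPM in knockout and 397.6 ± 96.0 CPM in control tissue (log2 fold change -0.65, SE 0.168, edgeR adjusted p = 0.0173), and 72.2% of its 50-base stretches are also found in other genes. Ldhd, which handles D-lactate in mitochondria, fell by 0.43 on the log2 scale (174.4 ± 12.3 CPM in knockout and 234.7 ± 14.0 CPM in control tissue; edgeR adjusted p = 0.00300). Gapdh counts were 3.67 to 18.5 CPM over all libraries, and 82.5% of its 50-base stretches are found in other genes, so its level cannot be read from this table. The median given above is the value of Gapdh itself. Pgk1 and Pgam1, which did not pass, share 68.0% and 41.5% of their 50-base stretches with other genes, so their levels are less certain.

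Among 10 tested genes that regulate glycolysis or run it backwards, 1 rose and 3 fell, beside 15.4% and 18.9% of all tested genes. The median log2 fold change was 0.052. Pck2, the mitochondrial phosphoenolpyruvate carboxykinase, had 86.0 ± 4.73 CPM in knockout and 29.6 ± 6.32 CPM in control tissue (log2 fold change 1.54, SE 0.135, edgeR adjusted p = 0.000176). Every knockout library lay above every control library. Fbp2, the muscle fructose bisphosphatase, fell by 1.16 on the log2 scale (11.2 ± 2.90 CPM in knockout and 25.0 ± 7.20 CPM in control tissue; edgeR adjusted p = 0.00620). Pfkfb1, which sets the level of an activator of phosphofructokinase, and Pcx, pyruvate carboxylase, fell by 0.48 and 0.40 on the log2 scale, with edgeR adjusted p of 0.0136 and 0.0199.

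The pentose phosphate pathway branches off after hexokinase and supplies NADPH and ribose. All 8 of its tested genes had negative log2 fold changes, and 7 of them fell, beside 18.9% of all tested genes. Their median log2 fold change was -0.61. Pgd, phosphogluconate dehydrogenase, had 296.8, 267.6, 330.7 and 387.1 CPM in the knockout libraries, against 963.6, 539.4, 896.0 and 834.2 CPM in the control libraries. The groups did not overlap (log2 fold change -1.33, SE 0.185, edgeR adjusted p = 0.00105). Taldo1, transaldolase, fell by 0.71, Rpe by 0.56, H6pd, a dehydrogenase of the endoplasmic reticulum, by 0.56 and Pgls, the lactonase, by 0.43 on the log2 scale (with edgeR adjusted p of 0.00220, 0.000722, 0.00837 and 0.00508). Rpe, ribulose phosphate epimerase, has 20.7% of its exon bases opposite Kansl1l, and Taldo1 shares 12.4% of its 50-base stretches with another gene. G6pdx, which opens the pathway, did not pass (281.8 ± 30.1 CPM in knockout and 345.4 ± 111.9 CPM in control tissue; edgeR adjusted p = 0.276).

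In glycogen metabolism, which draws on the same glucose phosphate, 2 of 17 tested genes rose and 6 fell. Beside them stand 15.4% and 18.9% of all tested genes. The median log2 fold change of the glycogen genes was -0.21. The falls included Gys2, the liver glycogen synthase (-1.31), Pygl, the liver glycogen phosphorylase (-0.87), the branching enzyme Gbe1 (-0.60) and Ugp2, which makes UDP-glucose (-0.36), with edgeR adjusted p of 0.00642, 0.00632, 0.0136 and 0.0251. Pygb, the brain glycogen phosphorylase, rose by 0.38 (257.8 ± 11.2 CPM in knockout and 198.6 ± 22.8 CPM in control tissue; edgeR adjusted p = 0.0107). The other risen gene is listed as Pgm1 in the count table and as Pgm2 in the RefSeq GRCm38.p6 table (19.5 ± 1.87 CPM in knockout and 10.8 ± 2.20 CPM in control tissue; log2 fold change 0.85, edgeR adjusted p = 0.00291). The gene listed as Pgm2 in the count table, named Pgm1 in RefSeq, fell by 0.32 (log2 fold change -0.32, edgeR adjusted p = 0.0344).

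**Figure D4:**
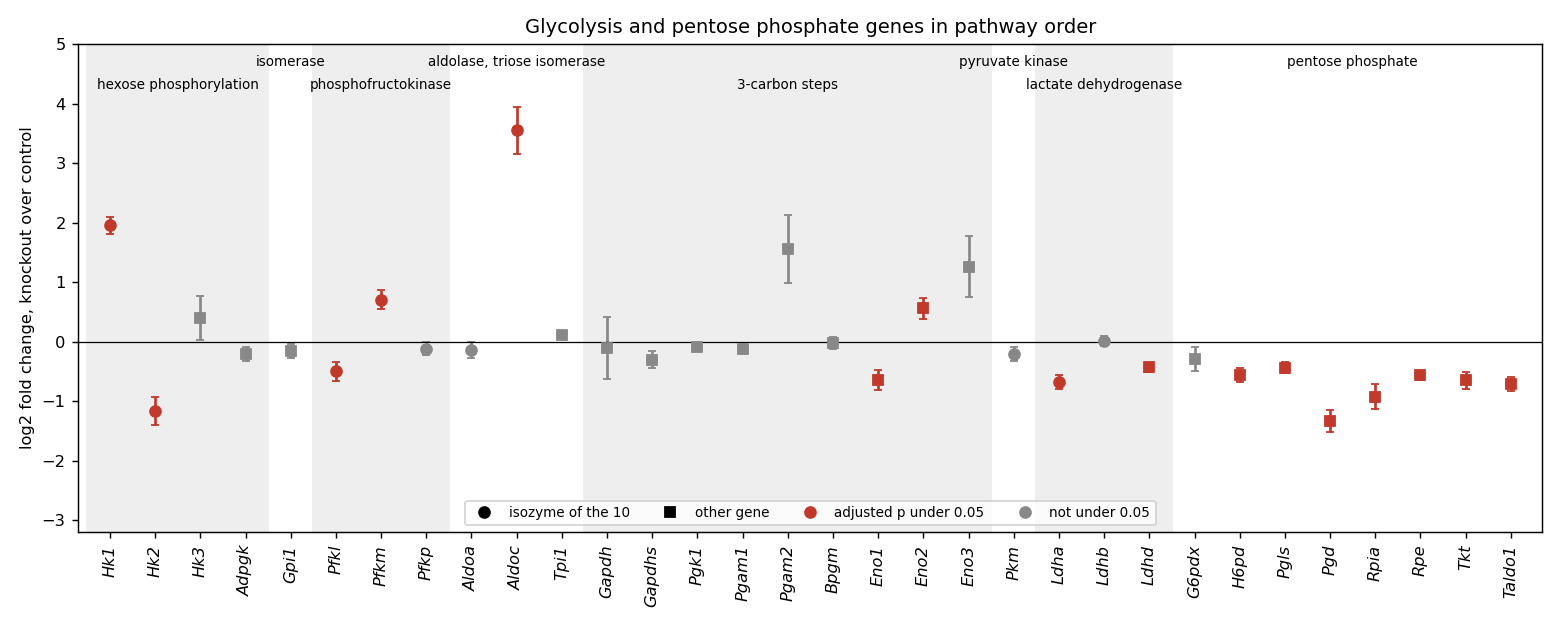
Log2 fold change of knockout over control (vertical axis) for tested genes of glycolysis and the pentose phosphate pathway in the order of the pathway, with circles for the 10 isozymes, squares for other genes, whiskers for the SE and red for an edgeR adjusted p under 0.05. Aldoc at 3.55 and Hk1 at 1.95 are the highest of the plot, Pgd at -1.33 is the lowest, and the pentose phosphate genes are all under 0.

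Genes with a pattern over the 8 libraries like that of the member with the largest rise and of the member with the largest fall were sought among 10300 genes averaging 5 CPM or more. The measure was Pearson's r of log2 CPM, given as a description without a test, since the group difference and the library scaling enter every r. Nearest to Aldoc were Esam, an adhesion molecule of endothelium (r = 0.996), Tbcel, a tubulin chaperone relative (0.993), and Gstt1, a glutathione transferase (0.993), with log2 fold changes of 0.79, 1.03 and 1.18. Nearest to Hk2 were Cdk5rap1, which modifies mitochondrial tRNAs (r = 0.996), Tspan14, a tetraspanin (0.990), and Nemf, a factor of ribosome quality control (0.989), with log2 fold changes of -0.68, -0.40 and -0.24. All 6 had smaller log2 fold changes than Aldoc or Hk2 itself.

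The authors' deposited table gave folds of knockout over control of 3.82 for Hk1, 1.61 for Pfkm, 11.5 for Aldoc, 0.440 for Hk2, 0.700 for Pfkl and 0.619 for Ldha. In the authors' deposited table these 6 members had an FDR under 0.05 and the other 4 did not. The directions were the same as in the fit described above. With library sizes alone in place of TMM factors, the median of all genes shifted by 0.20 on the log2 scale and Aldoa and Pfkp changed sign, to 0.061 and 0.083, neither passing (edgeR adjusted p = 0.709 and 0.561). Upper quartile factors shifted that median by 0.10. The 6 called members kept their direction under both, while Pfkl no longer passed.

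**Figure D5:**
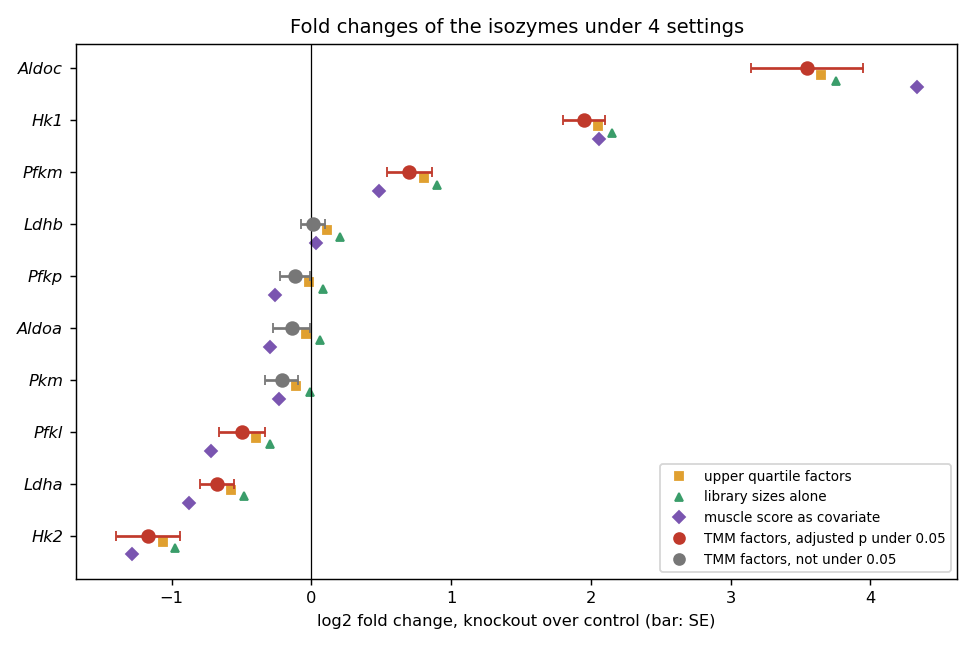
Log2 fold change of knockout over control (horizontal axis) for each isozyme, sorted, with circles for the fit with TMM factors (red where the edgeR adjusted p is under 0.05, bars for the SE) and other markers for upper quartile factors, library sizes alone and the muscle score as a covariate. Aldoc and Hk1 lie above 1.9 and Hk2 below -0.9 under all 4 settings, while Aldoa and Pfkp lie on either side of 0 depending on the scaling.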

How the data were processed

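Total RNA of brown adipose tissue from 8 libraries was extracted with Trizol and sequenced on Illumina, per the labels' protocols. The submitters' processing notes name TopHat version 2, HOMER, edgeR and the build mm10. The estimated counts deposited by the authors come from HOMER over exons on both strands, without adjustment, per the file headers, so antisense reads cannot be told apart. Of the values, 36.9% were not whole, and all were rounded. The authors' comparison was also deposited, with a signal of counts scaled to equal totals, a fold ratio, p-values and FDR, and log2 fold changes and log2 CPM.

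The 829 rows with no symbol (0.0608% to 0.0824% of counts) were left out. The row with the highest total stood for each of 23372 genes. filterByExpr (minimum count 10) left 14178. These were tested by the two-sided quasi-likelihood test of edgeR 4.0.16 (R 4.3.3) with TMM factors (1.05 to 1.10 in knockout, 0.898 to 0.961 in control libraries) and Benjamini-Hochberg adjustment over all of them, at 0.05. Simulated counts were used to check the test. The SE is the log2 fold change divided by the square root of F, an approximation. Depth was 23683798 to 28570446 counts per library, and PCR copies were not separable.

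Correlation of log2 CPM was 0.985 to 0.991 within knockout and 0.963 to 0.981 within control libraries, and no pair agreed within sampling noise. Library numbers differ between the groups, so nothing is paired. Alternatives were other scaling factors, no filter, DESeq2 1.42.0, limma-voom (limma 3.58.1), other transcript rows, rounding down, leaving out each library, and a skeletal muscle score as a covariate. Named genes were the members, Kdm1a, up to 5 called genes per direction of each of 4 pathway lists, and the 3 nearest patterns of the largest rise and fall. The members and lists were chosen with earlier results of these data known. Shared 50-base stretches were sought in GENCODE vM21 transcripts. A called gene of these lists is not reported here.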

Additional observations from a re-analysis of the deposited data

How the results depend on the processing

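Hk1, Aldoc, Hk2 and Ldha kept their direction and their call under all alternatives run. With 1 library left out at a time, their log2 fold changes were 1.86 to 2.03 for Hk1, 3.28 to 3.91 for Aldoc, -1.33 to -0.86 for Hk2 and -0.78 to -0.59 for Ldha. Pfkm kept its call (0.57 to 0.85 with a library left out) except with the muscle score as a covariate (0.48, edgeR adjusted p = 0.101). Pfkl lost its call with upper quartile factors (-0.40, edgeR adjusted p = 0.0988), with library sizes alone (-0.30, 0.173) and without 6 of the 8 libraries, with a range of -0.63 to -0.39 over all 8. With library sizes alone the log2 fold changes of Pfkp (0.083) and Aldoa (0.061) changed sign. Ldhb was -0.030 without knockout 516 and -0.051 without control 511, within a range of -0.051 to 0.062. Members that rose numbered 3, or 2 with the muscle covariate, and members that fell 3, or 2 where Pfkl was lost. The Hk1 share in knockout minus control tissue was 30.3 percentage points, and 25.6 without division by length. Over all genes, 4077 rose with library sizes alone and 1386 with the muscle covariate, against 2189, and 1625 fell with upper quartile factors, 930 with library sizes alone and 1762 with the muscle covariate, against 2682. With a library left out 1527 to 2260 rose and 1900 to 2655 fell. Over the 4 pathway lists together, 4 of 50 genes rose and 19 fell; 9 rose and 10 fell with library sizes alone, 10 rose with limma-voom, and 3 to 8 rose and 13 to 19 fell with a library left out, the 8 without control 514. Eno2 was not called without any of the 4 knockout libraries, control 511 or control 517, nor with no filter on low counts. The causes of these changes were not tested. No paired analysis was possible because the library numbers differ between the groups. Depth limits Eno2, under 5 CPM, and Aldoc in control libraries, with 30 to 135 counts.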
